A study of Populus tremula x Populus alba with 3 samples.

Results

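Potri.004G086600 and Potri.016G135400, which match the Arabidopsis lipid transfer protein gene LTP1 (AT2G38540), and Potri.002G060800, which matches the Arabidopsis protodermal factor gene PDF1 (AT2G42840), were examined in poplar apical buds. These 3 genes were picked by identifier from the 41335 rows of the count table, and they were picked because they had been lower in the RNAi libraries than in wild type. Their values in that contrast are therefore given as a description, with no test. All 3 passed the filter on low counts, and their smallest count in any library was 562.

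RNA came from the hybrid poplar INRA clone 717-1B4 (Populus tremula x Populus alba). One library was wild type (WT). The others, KD2 and KD5, came from separate transgenic lines of the same clone carrying an RNAi construct that targets PtaDML10. The target's name places it with the DEMETER-like enzymes, which excise methylated cytosine from DNA. Plants of all 3 genotypes had 4 weeks of long days (16 h light, 21 °C), 12 weeks of short days (8 h light, 19 °C) and 4 weeks at 4 °C, and were then moved back to long days. Apical buds still at stage 0, before any visible opening, were taken from 15 plants per genotype, 1 bud each. Plant age beyond this schedule, the promoter of the construct and any pooling of the buds of a genotype are not given in the sources used. WT has n = 1 library and the RNAi group n = 2, each from a different line, so the spread between KD2 and KD5 mixes line and sampling.

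Lipid transfer proteins are small secreted proteins with a hydrophobic cavity that binds fatty acids and other lipids. In Arabidopsis, LTP1 is found in the walls of epidermal cells and has been linked to the supply of lipid for the cuticle, the waxy sheet that seals the shoot. PDF1 encodes a proline-rich cell wall protein that in Arabidopsis is made in the outermost cell layer of the shoot meristem and of young organs, and it is widely used as a marker of that layer. In a closed bud this layer covers the meristem, the leaf primordia and the bud scales. These roles are known from Arabidopsis. The names rest on the authors' deposited table, the files hold no spatial data, and the place of expression in poplar buds was not examined here.

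Library totals lay between 4509887 and 6829583 counts, with WT the deepest. The target locus, which published naming (not the files) gives as Potri.010G234400, stood at 9.59 CPM in WT, 13.2 CPM in the library labelled KD2 and 17.0 CPM in that labelled KD5. Both RNAi libraries lay above WT there, against the direction of a knockdown, and the difference was not called (log2 fold change 0.66, edgeR adjusted p = 0.151). Directions below are those of the libraries so labelled.

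The LTP1 match Potri.004G086600 had 6374 counts in WT, 2773 in KD2 and 2271 in KD5. Relative to the TMM-scaled library size (CPM), these were 1036 CPM in WT, 582 CPM in KD2 and 465 CPM in KD5. WT was the highest, KD2 lay between and KD5 was the lowest. The exact 95% Poisson intervals, which cover counting error only, were 1011 to 1062 CPM, 561 to 604 CPM and 447 to 485 CPM. Those of KD2 and KD5 did not overlap. That of WT lay above both, which was favoured by how the gene was picked and is no support. The mean of the RNAi libraries was 524 ± 82.6 CPM (SD, n = 2), and the fitted log2 fold change was -0.98. The step from WT to the nearer RNAi library was 3.89 times the step between the RNAi libraries. The gene was picked on the first of these steps, so this ratio is a description and no support.

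Its counterpart Potri.016G135400 had 4405 counts in WT, 1672 in KD2 and 1736 in KD5, or 716, 351 and 356 CPM. Here the RNAi libraries were nearly equal, at 353 ± 3.36 CPM (SD, n = 2), and WT lay above both. The level in KD2 was 49.0% of that in WT and the level in KD5 49.7%, with counting intervals on the ratios of 0.463 to 0.519 and 0.470 to 0.525. The fitted log2 fold change was -1.02.

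The PDF1 match Potri.002G060800 had 1422 counts in WT, 704 in KD2 and 562 in KD5, or 231, 148 and 115 CPM. As for Potri.004G086600, the order was WT, then KD2, then KD5. The counting intervals were 219 to 244 CPM, 137 to 159 CPM and 106 to 125 CPM. Those of KD2 and KD5 did not overlap, and the place of WT above them was favoured by how the gene was picked. The RNAi mean was 132 ± 23.1 CPM (SD, n = 2) and the fitted log2 fold change -0.81. The step from WT to KD2 was 2.56 times that between KD2 and KD5. That ratio too follows in part from how the gene was picked. In the authors' deposited table the log2 fold changes were -0.998 for Potri.004G086600, -1.03 for Potri.016G135400 and -0.83 for Potri.002G060800.

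**Figure D1:**
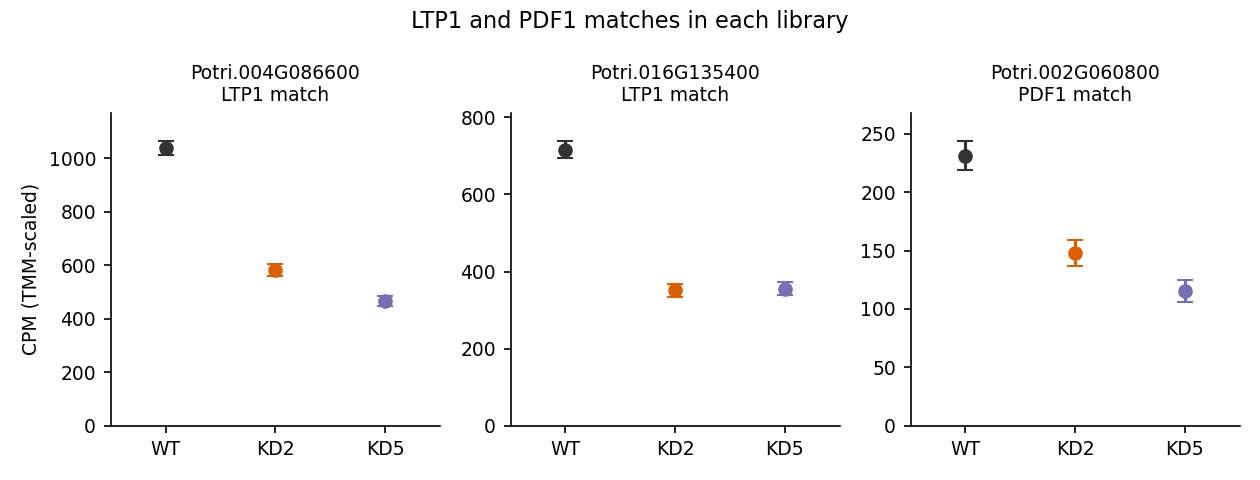
Level of each LTP1 or PDF1 match, in TMM-scaled CPM from 0, in the WT, KD2 and KD5 libraries. Points are single libraries and bars are exact 95% Poisson intervals of the count. WT is the highest in each panel, and KD2 lies above KD5 for Potri.004G086600 (582 against 465 CPM) and Potri.002G060800 (148 against 115 CPM) but not for Potri.016G135400 (351 against 356 CPM).

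The background of the contrast depended on the scaling. With TMM scaling, by edgeR's quasi-likelihood test 13.1% of 23089 genes were called at an adjusted p below 0.05, with 8.05% called lower. With libraries scaled by size only, 4.23% were called lower and 13.0% higher, so the balance of directions turned. DESeq2 called 5.34% lower and 0.434% higher of the 9212 genes to which it gave an adjusted p. Among the 1893 genes averaging at least 100 CPM, a level all 3 genes exceed, 34.9% were called lower and 2.32% higher, and their median log2 fold change was -0.29. Since the 3 genes were selected on this contrast, nothing is read from their own calls. Set against that median, the log2 fold changes were -0.70 for Potri.004G086600, -0.73 for Potri.016G135400 and -0.53 for Potri.002G060800. Of the abundant genes, 6.6%, 5.71% and 12.7% respectively had a lower fold change. These ranks follow in part from how the genes were picked and are given to place them, not as support.

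The size of the difference in the 3 genes also depended on the scaling. Library size alone gave log2 fold changes of -0.76 for Potri.004G086600, -0.80 for Potri.016G135400 and -0.59 for Potri.002G060800. Loess normalization, which removes any trend of fold change with abundance, brought the log2 fold changes to -0.46 for Potri.004G086600, -0.56 for Potri.016G135400 and -0.55 for Potri.002G060800. The direction, on which the genes had been picked, was kept in each, and the LTP1 values were reduced most. With that normalization 3.36% of all tested genes were called lower and 2.07% higher. Among the abundant genes these shares were 9.24% and 5.12%. The median log2 fold change of abundant genes was then 0.01. Whether the trend with abundance is biological or technical was not tested.

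**Figure D2:**
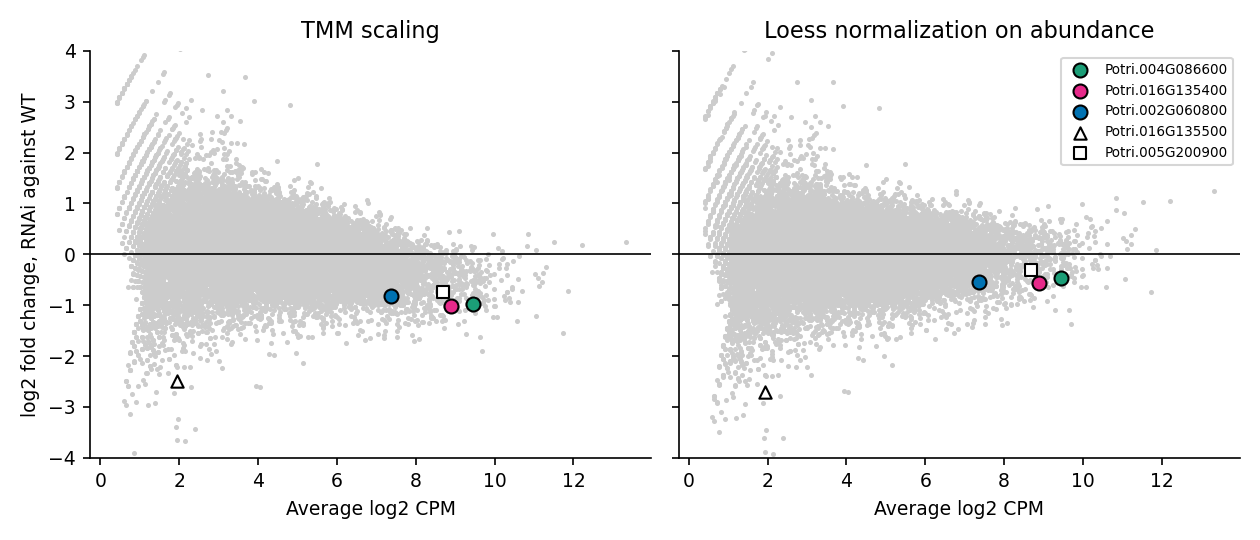
Log2 fold change of RNAi against WT (vertical axis) by average log2 CPM (horizontal axis) for 23089 genes in grey, with TMM scaling on the left and loess normalization on the right; genes beyond 4 on the vertical axis are not drawn. Coloured circles are the 3 genes described, and the open triangle and square are the remaining LTP1 match and PDF1 match. The grey cloud bends below 0 at high abundance on the left and not on the right, and the LTP1 match Potri.004G086600 moves from -0.98 to -0.46.

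The difference between KD2 and KD5 was not used to pick the genes. With 1 library per line it has no test. Potri.004G086600 stood 1.25 times higher in KD2 than in KD5 (counting interval 1.18 to 1.32), and Potri.002G060800 stood 1.28 times higher (1.15 to 1.44). For Potri.016G135400 the ratio was 0.987, and its interval of 0.922 to 1.06 includes equality. On the log2 scale these ratios were 0.32, 0.36 and -0.02. Of the 1893 abundant genes 3.17% had a higher ratio of KD2 to KD5 than Potri.004G086600 and 2.32% a higher one than Potri.002G060800, whereas 47.3% had a higher one than Potri.016G135400. The middle 90% of these genes' ratios ran from -0.41 to 0.26.

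The same counts can be read inside each library, as the ratio of the LTP1 matches to each other, without any scaling between libraries. Potri.004G086600 gave 59.1% of the counts of the pair in WT, with an exact Clopper-Pearson 95% interval of 58.2 to 60.1%. It gave 62.4% in KD2 (60.9 to 63.8%) and 56.7% in KD5 (55.1 to 58.2%). WT lay between the RNAi libraries. The counting intervals of KD2 and KD5 did not overlap, and that of KD5 ended about where that of WT began. With 1 library per line the spread between samples of a line is unknown, so this is no test of a difference between lines. Gene lengths were not used here, so these are shares of reads and not of transcripts. How reads that fit more than 1 copy were counted is not given either, and near-identical copies could trade reads.

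The PDF1 match was compared with the LTP1 pair in the same way. There were 13.2 PDF1 counts per 100 LTP1 counts in WT (exact interval 12.5 to 13.9), 15.8 in KD2 (14.6 to 17.2) and 14.0 in KD5 (12.8 to 15.3). KD2 lay above WT beyond counting error, and the intervals of KD5 and WT overlapped. With all matches of both Arabidopsis genes in the authors' deposited table counted, the values were 44.9 in WT (43.4 to 46.5), 53.8 in KD2 (51.2 to 56.6) and 52.4 in KD5 (49.7 to 55.2). On that count both RNAi libraries lay above WT, that is, LTP1 reads were lower by a larger factor than PDF1 reads. With 1 WT library this has no test. A trend of fold change with abundance does not cancel in these ratios. After loess normalization the log2 fold changes were -0.46 and -0.56 for the LTP1 pair and -0.55 for Potri.002G060800, so that gap was not kept. The remaining PDF1 match, Potri.005G200900, stood at -0.30.

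**Figure D3:**
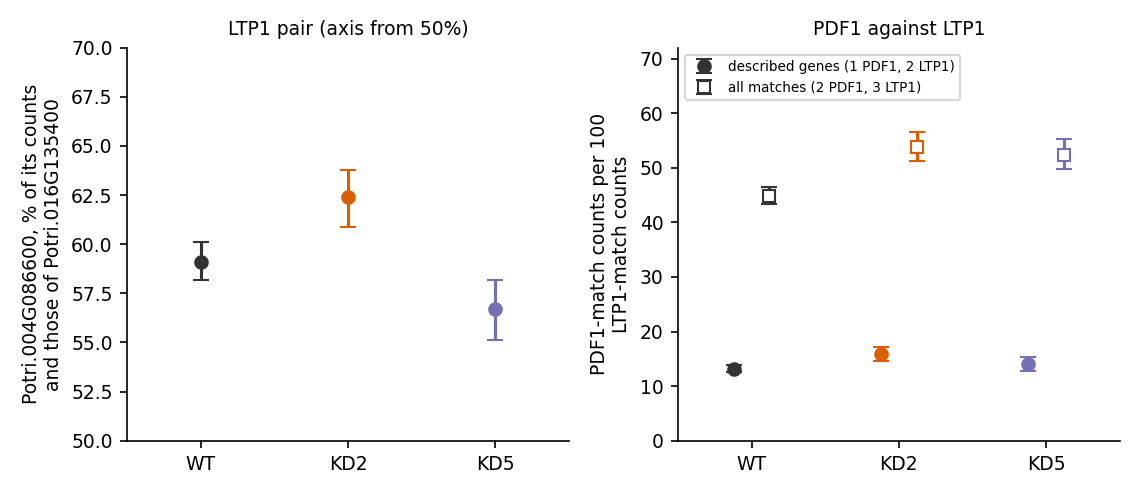
Ratios within each library, which need no scaling between libraries but keep any trend of fold change with abundance. Left, Potri.004G086600 as a percentage of its counts plus those of Potri.016G135400 (axis from 50%), with exact binomial 95% intervals: 59.1% in WT, 62.4% in KD2 and 56.7% in KD5. Right, PDF1-match counts per 100 LTP1-match counts with exact 95% intervals, as filled circles for the 3 genes described and as open squares for all matches, where WT at 44.9 lies below KD2 at 53.8 and KD5 at 52.4.

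Arabidopsis LTP1 has 1 more match in the authors' deposited table, and so has PDF1. Potri.016G135500, whose identifier follows that of Potri.016G135400, is the remaining LTP1 match and was weakly counted, with 44 counts in WT, 10 in KD2 and 2 in KD5. The last is under the floor of 3 counts. It was called lower (log2 fold change -2.50, SE 0.64, edgeR adjusted p = 0.00207), and it gave 0.407% of all LTP1-match counts in WT and 0.0499% in KD5. Reads shared with its abundant neighbour could add to these few counts.

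Potri.005G200900, the remaining PDF1 match, had 3441 counts in WT, 1694 in KD2 and 1538 in KD5, or 559, 356 and 315 CPM. It followed the same order of libraries as Potri.002G060800 and was called lower (log2 fold change -0.74, SE 0.15, edgeR adjusted p = 6.84e-05). After loess normalization it stood at -0.30 and was not called (edgeR adjusted p = 0.281). Potri.002G060800 gave 41.3 counts per 100 of Potri.005G200900 in WT, 41.6 in KD2 and 36.5 in KD5, and the exact intervals of the 3 libraries overlapped. Both remaining matches come from a table that the authors had selected on these libraries, so their direction is not independent evidence.

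Other genes described as lipid transfer proteins or protodermal factors were looked up in the same table. There were 13 besides the 3 described, and 12 were called lower and 1 higher, where 8.05% of all tested genes were called lower. Differing was the condition for entry to that table, in which 1387 of 2151 genes (64.5%) are lower, so the count is not independent evidence. Their median log2 fold change was -0.87, where all listed genes that were tested had a median of -0.76. After loess normalization 8 of the 13 were called lower and 1 higher, where 3.36% and 2.07% of all tested genes were. The most abundant was Potri.016G136000, a match of the lipid transfer protein locus AT5G01870, at 802, 446 and 341 CPM in WT, KD2 and KD5 (log2 fold change -1.03, edgeR adjusted p = 1.23e-09; -0.55 and not called after loess). It resembled Potri.004G086600 in having KD2 between WT and KD5.

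Potri.T162900, a match of AT3G22142, had 211, 124 and 126 CPM in WT, KD2 and KD5 and, like Potri.016G135400, nearly equal RNAi libraries. Potri.002G251000, a match of DIR1, a lipid transfer protein that in Arabidopsis acts in systemic resistance to pathogens, had 218, 101 and 130 CPM, with KD2 the lowest. Potri.006G065500 (AT2G10940) and Potri.008G141000 (AT2G37870) had log2 fold changes of -0.72 and -0.87. The gene called higher was Potri.003G111300, a match of AT1G62500, at 44.4, 67.8 and 81.2 CPM in WT, KD2 and KD5 (log2 fold change 0.75, edgeR adjusted p = 0.00192). It was picked for mention after its values were seen.

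With the surface layer genes below taken in, 14 related genes besides the 3 described could be compared between KD2 and KD5. Of the 4 in the surface layer list, KD2 was above KD5 in 4, with log2 ratios from 0.17 to 2.36, the last of which is Potri.016G135500 with 10 and 2 counts. Of the other 10 lipid transfer genes KD2 was above KD5 in 3 and below in 7, with a median log2 ratio of -0.19. These ratios have no test.

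A list of 46 Arabidopsis genes of the shoot surface, covering identity factors, wax and cutin synthesis and export, was matched to the authors' deposited table. Of these, 4 had a match, in 7 poplar genes that include the 3 described. Of the 4 besides the 3 described, 4 were called lower with TMM scaling and 2 with loess normalization. Over all tested genes these shares were 8.05% and 3.36%. Differing in these libraries was the condition for entry to that table, in which 64.5% of genes are lower. A call was thus nearly fixed beforehand, and the count is not independent evidence. Besides the LTP1 and PDF1 matches, Potri.006G218000 matches FIDDLEHEAD (FDH, KCS10), an enzyme of long-chain lipid synthesis that in Arabidopsis keeps epidermal surfaces from fusing. It stood at 278, 190 and 144 CPM in WT, KD2 and KD5 (log2 fold change -0.74, edgeR adjusted p = 0.000194; -0.43 and not called after loess). Potri.009G158100, a match of the membrane-anchored lipid transfer protein locus AT3G43720, which takes part in wax export in Arabidopsis, stood at 29.6, 17.6 and 15.6 CPM (log2 fold change -0.83, edgeR adjusted p = 0.00772). Names exist for listed genes alone, so the other 42 Arabidopsis genes, among them the epidermal identity factors ATML1 and PDF2, were not analysed here.

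Markers of other bud tissues could be counted only where the authors had listed them as differing, so a call was nearly fixed beforehand, and 64.5% of that table is lower. Beside each count of calls here and in the next paragraph, the share of all tested genes called lower was 8.05%. Matches were found for 7 of 12 mesophyll, 3 of 6 meristem, 1 of 4 phloem, 1 of 8 xylem and 1 of 6 trichome markers, and the remaining markers were not analysed here. In bulk RNA, fewer cells of a type and less RNA per cell cannot be told apart. Of 10 listed mesophyll genes, which serve photosynthesis, 10 were called lower. Their median log2 fold change was -0.98, with a summed level of 8221 CPM in WT, 3796 CPM in KD2 and 3864 CPM in KD5. CAB1 (Potri.005G239200), a chlorophyll-binding protein, stood at -1.45, LHCB1.4 (Potri.005G239300), of the same family, at -1.40, and the Rubisco small subunit gene Potri.017G114600 at -1.31. Of 4 listed meristem genes 4 were called lower, with a median of -0.89 and a summed level of 325, 157 and 199 CPM, among them SHOOT MERISTEMLESS (Potri.011G011100) at -0.93, ANT (Potri.014G012200), a growth regulator, at -0.92 and Potri.004G004700, another SHOOT MERISTEMLESS match, at -0.86. The surface layer list had a median of -0.83 and a summed level of 2858 CPM in WT, 1646 CPM in KD2 and 1411 CPM in KD5. These values include the 3 genes described, which were picked as lower. The LTP1 pair alone gave 1752 CPM of the sum in WT, 933 CPM in KD2 and 821 CPM in KD5.

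Of 4 phloem genes, all matching the sieve element occlusion locus AT3G01680, 3 were called lower, and the summed level was 70.6, 30.7 and 37.1 CPM. The only xylem gene listed, CESA7 (Potri.006G181900), which makes cellulose of the secondary wall, was called lower, from 15.1 CPM in WT to 5.25 and 6.97 CPM. The only trichome gene listed was the CPC match Potri.004G021300. In Arabidopsis CPC represses trichome formation on leaves, so its level is no measure of trichome content. This match was called higher, at 4.71, 9.87 and 12.9 CPM (edgeR adjusted p = 0.0149). Of 7 stomatal genes 0 had a match in the table. No gene of these lists was at 0 in any library. The summed surface level in the RNAi libraries was the lowest in KD5, while those of the mesophyll, meristem, phloem and xylem lists were the lowest in KD2. The mesophyll sums were close (3796 CPM in KD2, 3864 CPM in KD5), and its genes went either way. The xylem list held only CESA7, with 25 counts in KD2 and 34 in KD5. Against their lists went only ANT (21.6 CPM in KD2, 18.0 CPM in KD5), the phloem gene Potri.012G090400 (10.1 and 9.22 CPM) and the surface gene Potri.016G135400 (351 and 356 CPM). These orders have no test. All these genes were selected by the authors on the same libraries, and the part of tissue content in the LTP1 and PDF1 values was not tested.

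**Figure D4:**
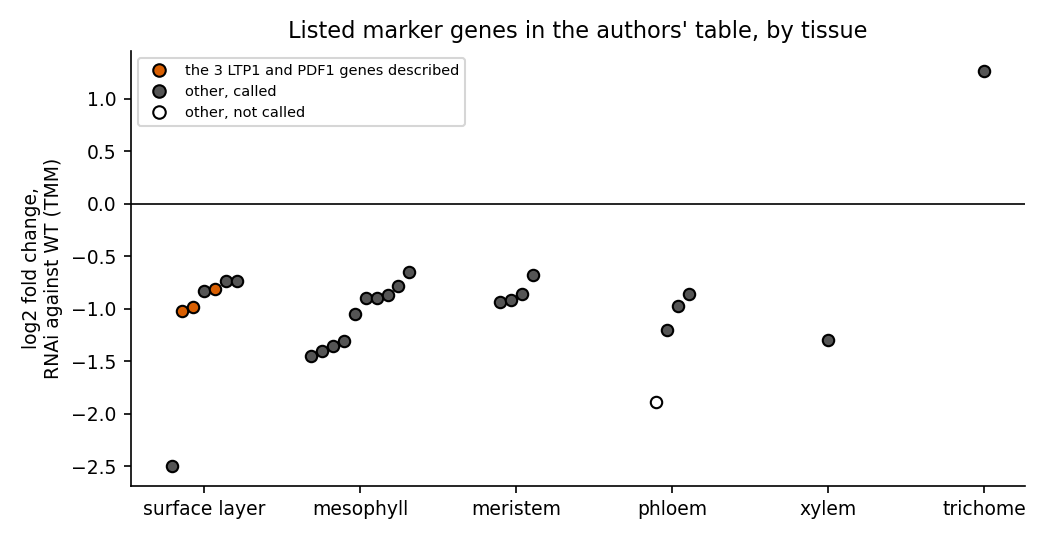
Log2 fold change of RNAi against WT with TMM scaling (vertical axis) for each marker gene found in the authors' deposited table, by tissue list (horizontal axis). Orange points are the 3 genes described, grey points other genes called at an adjusted p below 0.05 and the open point a gene that was not called. The 7 surface layer points lie below 0, as do the 10 mesophyll and 4 meristem points, and the trichome gene lies above 0 at 1.27.

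To find genes of the most similar pattern, the Euclidean distance over the log2 ratios of KD2 to WT and KD5 to WT was taken to 666 named genes averaging at least 50 CPM. Names exist only for genes the authors listed as differing, of which 64.5% are lower. Nearness and ranks therefore hold among such genes alone. The distance rests on 3 libraries and TMM scaling and describes them. With loess normalization 0, 0 and 1 of the 3 nearest genes of Potri.004G086600, Potri.016G135400 and Potri.002G060800 were found again, so the neighbours depend on that choice. Nearest to Potri.004G086600 were the chalcone synthase match Potri.001G051600 (distance 0.0414), which opens flavonoid synthesis, Potri.001G304700, described as a ribosomal protein S5 domain gene (0.0668), and the OEP16-S match Potri.010G142300 (0.0696). Nearest to Potri.016G135400 were the small nuclear ribonucleoprotein gene Potri.001G440100 (0.0242), the histone variant H2AX match Potri.005G040700 (0.0371) and the vesicle traffic GTPase match ARFA1F, Potri.013G005600 (0.0373).

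Nearest to Potri.002G060800 were the LSH6 match Potri.001G460400 (0.0315), the zinc knuckle gene Potri.005G234700 (0.0672) and the MAMI match Potri.011G126200 (0.0742). None of these 9 genes is described as a lipid transfer protein. The LTP1 matches lay 0.245 apart, and 49 of the 666 genes were nearer to Potri.004G086600 than Potri.016G135400 was. The distance from Potri.004G086600 to the PDF1 match was 0.241, about the same. Between Potri.016G135400 and the PDF1 match it was 0.384. The remaining PDF1 match Potri.005G200900 ranked 22 of 666 in nearness to Potri.002G060800, 151 to Potri.004G086600 and 363 to Potri.016G135400.

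**Figure D5:**
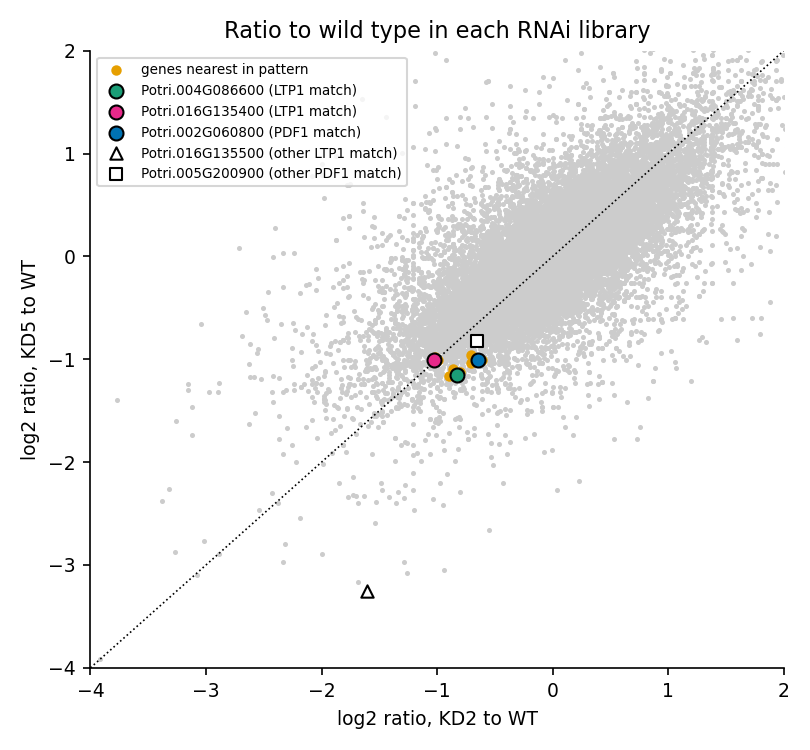
Log2 ratio to WT in KD2 (horizontal axis) and in KD5 (vertical axis), with a prior count of 2, for 23089 genes in grey; genes outside the axes are not drawn and the dotted line marks equal ratios. Potri.016G135400 lies on the line, while Potri.004G086600 and Potri.002G060800 lie below it, lower in KD5 than in KD2. Small orange points are the 9 genes nearest in pattern among the named genes, which the authors had listed as differing.

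Identifiers numbered next to the 3 genes were inspected, 3 on each side. Of these 18, 12 passed the filter on low counts and 2 were called lower and 0 higher by edgeR, where 8.05% of all tested genes were called lower. These were Potri.016G135500, the LTP1 match given above, and Potri.002G061100, which has no name in the files. The 5 tested neighbours of Potri.004G086600 had log2 fold changes between -0.37 and 0.47, against its own -0.98. For the 3 tested neighbours of Potri.016G135400 they lay between -2.50 and 0.52. For the 4 of Potri.002G060800 they lay between -0.65 and 0.16. Among the 7 identifiers from Potri.016G135400 to Potri.016G136000, 3 are named in the authors' deposited table. Each of these is a lipid transfer protein match with both RNAi libraries below WT. Only genes listed as differing have names, and Potri.016G135400 was picked as lower, so this shared direction is not independent evidence. Lower too was the unnamed Potri.016G135800 (1995 counts in WT, fitted log2 fold change -0.57), whereas the unnamed Potri.016G135700 was nearly level (-0.02). Potri.016G135600 and Potri.016G135900 had 0 counts in each library. The 2 abundant named genes, Potri.016G135400 and Potri.016G136000, differed in the ratio of KD2 to KD5, at -0.02 and 0.39 on the log2 scale.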

How the data were processed

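A directional kit was used for the libraries, per the labels' protocols. FastQC, TopHat and edgeR are named in the submitters' processing notes; their versions, the genome build, the annotation, the counting program and the treatment of reads fitting several genes are not given in the sources used. Raw whole-number counts were deposited by the authors, 1 column per library. Their deposited table of 2151 genes gives a log2 fold change, an average log2 CPM, p-values and adjusted p-values, and Arabidopsis matches, the only source of names here.

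Counts were tested with edgeR 4.0.16 (R 4.3.3) by the quasi-likelihood F-test, two-sided, RNAi against WT, after filterByExpr (minimum count 10) and TMM scaling (factors 0.903, 1.06 and 1.04 for WT, KD2 and KD5), with Benjamini-Hochberg adjustment over 23089 genes. "Called" means adjusted p below 0.05. The only residual degree of freedom (1) is the difference of KD2 and KD5; WT is assumed to vary as they do, and p-values speak of these libraries alone. Alternatives were other scalings, filters, thresholds and DESeq2 1.42.0; loess used limma 3.58.1. Intervals (SciPy 1.17.1) and the floor of 3 counts per library cover counting error only.

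The genes and lists were chosen with earlier results of these data known. Named genes were the 3 described, called surface layer genes, the 6 most abundant other lipid transfer or protodermal factor genes, and the target. Added to them were up to 3 called genes per other tissue list. The 3 nearest in pattern to each described gene were taken among genes of the authors' deposited table with at least 50 CPM. No sequence, promoter motif or gene length was used here.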

Additional observations from a re-analysis of the deposited data

How the results depend on the processing

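The 3 genes stayed below WT under each scaling, filter and tool tried. Since they were picked as lower in these same counts, the kept direction is no support, and only the sizes are of use. Potri.004G086600 moved from -0.98 to -0.46 with loess and to -0.70 against the median of abundant genes, a comparison added after seeing the data. Potri.002G060800 moved from -0.81 to -0.55 and -0.53. Potri.016G135400, whose RNAi libraries hardly differ, moved from -1.02 to -0.56 and -0.73. Upper quartile scaling gave -0.94, -0.97 and -0.77 for Potri.004G086600, Potri.016G135400 and Potri.002G060800. Leaving out the filter gave -0.998, -1.03 and -0.83 in the same order. These shifts were of like size in each gene. Library size only gave -0.76, -0.80 and -0.59 for Potri.004G086600, Potri.016G135400 and Potri.002G060800, a shift of like size in each. Leaving out KD2 or KD5 gave values with no test, from -1.17 to -0.85 for Potri.004G086600, -1.05 to -1.02 for Potri.016G135400 and -1.02 to -0.66 for Potri.002G060800.

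All calls numbered 3014 (1859 lower, 1155 higher). With library size only 976 were lower and 3004 higher, which moved the median log2 fold change of tested genes from 0.02 to 0.24. Loess left 1253 (776 and 477), DESeq2 532 (492 and 40) and an adjusted p below 0.01 left 1712 (1222 and 490). Without a filter edgeR called 0 genes, hence 0 in every list, with 5051 at an unadjusted p under 0.05. The cause of these shifts was not tested.

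Besides the 3 genes described, surface layer calls went from 4 to 2 with loess, and mesophyll calls from 10 to 6. DESeq2 left 1 meristem call, 0 xylem calls and 0 phloem calls. The trichome call was lost, leaving 0, with loess, DESeq2 and the stricter threshold. Added after seeing the data, loess put the log2 ratio of KD2 to KD5 for Potri.004G086600 at 0.41, and counting all matches put PDF1 per 100 LTP1 counts at 44.9 in WT, 53.8 in KD2 and 52.4 in KD5. Library scaling cannot change distances between genes. Loess, added after seeing the data, can, and it kept 0, 0 and 1 of the 3 nearest genes of Potri.004G086600, Potri.016G135400 and Potri.002G060800.

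No paired analysis was possible because the labels pair no WT library with an RNAi library, and the replicate numbers only count libraries within a group. Counts per coding length and the promoter motif were not run. Depth does not limit the 3 genes, but the remaining LTP1 match rests on few counts.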
